A study of Mus musculus with 19 samples.

Results

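Pyruvate dehydrogenase joins glycolysis to the citric acid cycle, and 10 genes of its complex and of the enzymes that switch it were followed in mouse heart RNA-seq. They were taken by symbol from a table of 56066 genes: Pdha1 and Pdhb, the subunits of the E1 enzyme, Dlat, the E2 acetyltransferase, Pdhx, the binding protein that anchors E3, the kinases Pdk1, Pdk2, Pdk3 and Pdk4, and the phosphatases Pdp1 and Pdp2. All 10 were found, and all 10 passed the filter on low values. Their partners Dld, the E3 enzyme, and Pdpr, the regulatory subunit of the phosphatase, are described beside them. The complex turns pyruvate into acetyl-CoA in mitochondria. The kinases shut it down by phosphorylating the alpha subunit of E1, and the phosphatases open it again. After birth the heart turns from glucose and lactate to fatty acids, and Pdk4 is known in heart and skeletal muscle as a gene raised by fasting, fatty acids and glucocorticoids and held down by insulin, while Pdk1 is known as a target of HIF1.

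The libraries compared came from hearts of wild-type (WT) mice at postnatal day 1 (P1, 3 libraries), from conditional PDK1 knockout (cKO) and WT hearts at P7 (3 cKO and 5 WT), and from cKO and WT hearts at P21 (3 cKO and 4 WT). The series text has P0 where the labels have P1. PDK1 can name the product of Pdk1 or of Pdpk1, a different kinase that acts on AKT; the labels give neither the allele nor the Cre line. Whole-gene values cannot show a deleted exon. Pdk1 had 39.1, 40.2 and 36.9 TPM in P7 cKO hearts and 41.9, 44.7, 36.1, 39.6 and 40.5 TPM in P7 WT (log2 change -0.05 ± 0.11), with overlap, and was higher in P21 cKO than in P21 WT, as given below. Pdpk1 had 8.09, 7.98 and 7.95 TPM in P7 cKO hearts and 11.9, 11.6, 8.09, 7.96 and 9.32 TPM in P7 WT (log2 change -0.12 ± 0.11). At P21 it had 5.54, 5.55 and 4.95 TPM in cKO and 7.65, 7, 6.17 and 6.60 TPM in WT (log2 change -0.15 ± 0.12). The P21 groups did not overlap, and neither change passed. Pdpk1 at P21 was -0.37 relative to the median gene and passed as lower after median-ratio scaling (-0.39, limma adjusted p = 0.014), a rescaling of each library by the median ratio of its genes. The labels do not say that libraries came from separate animals, so p-values measure the spread between libraries. WT titles had either a letter code or a plain number (cKO titles were plain), and this style was a term of the model. The letters differ by age (H at P1, heart at P7, B6 at P21); B6 is a usual short name of a mouse strain, and the labels do not say what the letters mean, so style, strain and colony cannot be told apart here. Replicate 3 of P1 WT held both Xist (18.4 TPM) and Y-linked transcripts (26.8 TPM). Without it, the calls for the 10 genes in P7 WT against P1 WT and P21 WT against P1 WT were the same.

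Levels are in TPM, which are scaled by transcript length, so that genes can be compared, and which keep no read depth. Changes are on the log2(TPM + 1) scale, on which changes of weakly expressed genes such as Pdp2 and Pdk3 come out too small. They were tested with limma over 14812 genes and 18 libraries, and a gene passed at an adjusted p under 0.05. The median gene moved by 0.22 between P21 cKO and P21 WT, by -0.47 between P21 WT and P7 WT, and by -0.48 between P21 WT and P1 WT, so changes in those comparisons are also given relative to it. Summed cardiomyocyte markers lay at 50115 to 53078 TPM in P21 cKO and 46042 to 51530 TPM in P21 WT, and all 8 were detected. Other cell types differed more: 7 fibroblast markers summed to 648 to 770.2 TPM in P21 cKO and 431 to 549 TPM in P21 WT, 6 endothelial markers to 341 to 376 TPM in P21 cKO and 215 to 292 TPM in P21 WT, and 6 mural markers to 363 to 387 TPM in P21 cKO and 216 to 306 TPM in P21 WT. Of these 19 markers, 16 rose in P21 cKO and 0 fell, where 19.5% of all genes rose and 1.77% fell. Their medians lay 0.38 (fibroblast), 0.27 (endothelial) and 0.44 (mural) above the median gene. Mitochondrially encoded transcripts took 20.3% to 20.4% of TPM in P21 cKO and 22.6% to 24.2% in P21 WT, and 13000 to 13344 genes reached 1 TPM in P21 cKO against 12422 to 12916 in P21 WT, with no overlap in either. With age in WT, 6 of 7 fibroblast, 6 of 6 endothelial and 4 of 6 mural markers fell and 5 of 6 macrophage markers rose in P21 WT against P7 WT. Of all genes, 64.4% fell and 8.1% rose there, so the mural count was near the share of all genes. In P7 WT against P1 WT 2 fibroblast, 4 endothelial, 3 mural and 2 macrophage markers rose and 0 fell, where 13.8% of all genes rose and 14.7% fell. The fibroblast median was -0.61 and the endothelial median -0.43 relative to the median gene in P21 WT against P7 WT. Atrial markers summed to 449 to 1324 TPM in P1 WT, 74.96 to 415 TPM in P7 WT and 90.7 to 139.8 TPM in P21 WT. The part of these cells and values in the changes with genotype and with age was not tested, and in bulk tissue fewer cells of a type and less RNA per cell cannot be told apart.

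The 4 kinase genes encode enzymes of like function, and most of the results below are about them, so the 250 bases before their RefSeq starts (GRCm38.p6) are shown, 5′ to 3′ on the gene's strand: Pdk1 (chr2:71872974-71873223, plus strand), Pdk2 (chr11:95041372-95041621, minus), Pdk3 (chrX:93832151-93832400, minus) and Pdk4 (chr6:5496279-5496528, minus). Capitals mark matches, on either strand, to ACGTG or GCGTG (cores of the hypoxia response element), ATTGG (the CCAAT box), AAGGTCA (the site of oestrogen-related receptors), GTAAACA (a FOXO site) and TATAAA.
Pdk1: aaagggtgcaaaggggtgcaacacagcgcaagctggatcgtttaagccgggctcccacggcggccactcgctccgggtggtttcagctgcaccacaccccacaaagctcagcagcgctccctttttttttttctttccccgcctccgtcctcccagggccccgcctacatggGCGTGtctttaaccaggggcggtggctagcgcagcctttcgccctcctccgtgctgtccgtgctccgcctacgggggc
Pdk2: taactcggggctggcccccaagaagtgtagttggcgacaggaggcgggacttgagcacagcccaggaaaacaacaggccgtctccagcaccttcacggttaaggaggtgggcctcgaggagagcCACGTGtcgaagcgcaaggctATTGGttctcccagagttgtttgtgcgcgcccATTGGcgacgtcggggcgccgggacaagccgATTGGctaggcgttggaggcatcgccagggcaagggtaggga
Pdk3: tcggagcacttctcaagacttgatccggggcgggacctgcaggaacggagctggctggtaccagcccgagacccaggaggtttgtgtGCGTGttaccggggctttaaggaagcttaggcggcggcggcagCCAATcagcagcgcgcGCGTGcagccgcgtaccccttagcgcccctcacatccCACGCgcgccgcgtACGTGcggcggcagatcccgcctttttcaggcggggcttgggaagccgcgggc
Pdk4: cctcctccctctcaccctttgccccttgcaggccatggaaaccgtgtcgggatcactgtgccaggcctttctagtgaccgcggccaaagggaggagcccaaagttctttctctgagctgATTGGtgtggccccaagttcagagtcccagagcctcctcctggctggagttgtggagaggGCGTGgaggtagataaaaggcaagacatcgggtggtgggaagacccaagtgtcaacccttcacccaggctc
Pdk1 had 1 GCGTG match. Pdk2 had 3 CCAAT boxes and 1 site in which ACGTG reads on both strands and overlaps itself. Pdk3 had 1 match to ACGTG, 3 to GCGTG and 1 CCAAT box, and Pdk4 had 1 match to GCGTG and 1 CCAAT box. Of 32851 RefSeq promoters of this length, 16.6% held the ACGTG core, 28.2% the GCGTG core and 33.8% the CCAAT box. The receptor site, held by 4.08% of them, the FOXO site, held by 3.17%, and the TATA box, held by 12.4%, matched in none of these 4 windows. CpG pairs numbered 19, 19 and 29 in Pdk1, Pdk2 and Pdk3, and 6 in Pdk4, which is the median of all promoters. Of the 10 genes 9 had an entry; Pdp1 had none.

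In the order of their levels, each E1 subunit stood above each single kinase and phosphatase gene in P1 and P21 WT hearts, and the places of the kinases changed with age. In P1 WT hearts the order was Pdhb (599.7 ± 20.4 TPM, SD, n = 3), Pdha1 (379 ± 23.9), Pdk2 (165 ± 22.3), Dlat (116 ± 6.90), Pdk4 (63.1 ± 24.5), Pdk1 (54.2 ± 10.3), Pdhx (48.7 ± 2.15), Pdk3 (33.4 ± 4.69), Pdp1 (21.1 ± 2.76) and Pdp2 (2.29 ± 0.573). Pdk4, Pdk1 and Pdhx overlapped there. In P21 WT hearts (n = 4) Pdk2 (169.8 ± 12.7 TPM), Dlat (150.1 ± 7.41) and Pdk4 (144 ± 91.8) overlapped below Pdhb (603 ± 10.04) and Pdha1 (502 ± 13.1). Pdhx (67.6 ± 2.89), Pdk1 (26.5 ± 2.12), Pdp1 (13.3 ± 3.52) and Pdp2 (4.85 ± 1.04) followed, and Pdk3 was last (1.86 ± 0.284). Pdha2, the testis form of E1 alpha, was listed at 0 in every library. Pdk2 and Pdha1 each overlap a gene of the other strand (Gm11513, 0.0168 TPM on average, and Map3k15, 0.226 TPM), and whether counting used the strand is not given in the sources used here.

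Among the subunits, the WT course from P1 to P21 was a small rise in Pdha1, Dlat and Pdhx while Pdhb passed in neither step. Pdha1 (ENSMUSG00000031299; mm10, chrX:160122209-160138413) had 387, 397 and 352 TPM in P1 WT, 444, 425, 453, 436 and 430.4 TPM in P7 WT and 504, 491, 495 and 520.3 TPM in P21 WT. No library of an age overlapped with those of the next. Pdha1 was 0.20 ± 0.05 higher on the log2 scale in P7 WT than in P1 WT (SE; limma adjusted p = 0.0121) and 0.20 ± 0.04 higher in P21 WT than in P7 WT (adjusted p = 5.66e-04), which is 0.67 above the median gene. Dlat (chr9:50634633-50659780), which holds the lipoyl arms of the core, had 123, 116 and 109 TPM in P1 WT, 146, 132, 159.5, 130.2 and 150.1 TPM in P7 WT and 161, 145, 145 and 149 TPM in P21 WT. It rose by 0.29 between P7 WT and P1 WT (adjusted p = 0.0123), and its P21 and P7 WT libraries overlapped (0.07 ± 0.06, adjusted p = 0.347).

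Pdhx (chr2:103021075-103073513) had 49.1, 46.4 and 50.6 TPM in P1 WT, 58.4, 50.2, 72.8, 61.8 and 65.1 TPM in P7 WT and 63.9, 67.2, 68.4 and 70.9 TPM in P21 WT. The P7 libraries reached from the P1 range past the P21 range, and the gene passed as higher only in P21 WT against P1 WT (0.37 ± 0.09, limma adjusted p = 0.00244), 0.84 above the median gene. For P7 WT against P1 WT the change was 0.21 (adjusted p = 0.108), and it passed without the title-style term (0.33, adjusted p = 0.0147) and without P7 WT replicate 3 (0.30). For P21 WT against P7 WT it was 0.16 (adjusted p = 0.0665), and it passed without P7 WT replicate 72 or P7 cKO replicate 69 (0.16 to 0.20). Pdhb (chr14:8165996-8173025), the beta subunit of E1, had 599.7 ± 20.4 TPM in P1 WT, 590.2 ± 38.5 TPM in P7 WT and 603 ± 10.04 TPM in P21 WT, and its ages overlapped. After median-ratio scaling Pdhb passed as higher in P21 WT, by 0.61 against P7 WT and by 0.54 against P1 WT, and Dlat (0.64) and Pdhx (0.72) passed against P7 WT too. Its ratio to Pdha1 was 1.59 ± 0.152 in P1 WT, 1.35 ± 0.0599 in P7 WT and 1.20 ± 0.0272 in P21 WT, with no overlap between ages. Dld, which the complex shares with other 2-oxoacid dehydrogenases, rose in P7 WT against P1 WT (0.33 ± 0.08, adjusted p = 0.00438) and had -0.09 in P21 WT against P7 WT (adjusted p = 0.216).

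The kinases went different ways after birth: Pdk3 and Pdk1 fell, Pdk2 was lowest at P7, and Pdk4 was higher in all 5 P7 libraries than in P1 hearts. Pdk3 (ENSMUSG00000035232; chrX:93764607-93832201) had 36.8, 35.3 and 28.0 TPM in P1 WT, 12.1, 11.9, 11.8, 11.3 and 11.9 TPM in P7 WT and 2.29, 1.70, 1.72 and 1.75 TPM in P21 WT. The 3 ages were far apart and did not overlap. Pdk3 fell by 1.37 ± 0.11 on the log2 scale in P7 WT against P1 WT (limma adjusted p = 1.94e-06) and by 2.17 ± 0.09 in P21 WT against P7 WT (adjusted p = 2.42e-11), which is -1.70 relative to the median gene. The ratio of the P21 WT to the P1 WT mean was 0.0559. Pdk1 (ENSMUSG00000006494; chr2:71873224-71903858) had 62.0, 58.1 and 42.6 TPM in P1 WT, 41.9, 44.7, 36.1, 39.6 and 40.5 TPM in P7 WT and 24.3, 26.0, 26.3 and 29.4 TPM in P21 WT. Replicate 3 of P1 WT lay inside the P7 range, and all P21 libraries lay below all others. Pdk1 fell by 0.98 ± 0.12 in P21 WT against P1 WT (adjusted p = 4.03e-06), -0.50 relative to the median gene. Its fall in P7 WT against P1 WT (-0.38, adjusted p = 0.0303) no longer passed without P1 WT replicate 1 or 2, P7 WT replicate 1 or P21 WT replicate 2 (-0.40 to -0.28), nor within letter-coded libraries (-0.30, adjusted p = 0.103). Its fall in P21 WT against P7 WT (-0.60, adjusted p = 6.14e-05) was -0.13 relative to the median gene, and after median-ratio scaling it was -0.04 and no longer passed.

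Pdk2 (ENSMUSG00000038967; chr11:95026258-95041354), the most widely expressed of the kinases, had 175, 181 and 139.9 TPM in P1 WT, 119, 137, 116, 131 and 133 TPM in P7 WT and 163, 169, 160.0 and 188 TPM in P21 WT. All P7 libraries lay below all P1 and P21 libraries. Pdk2 fell by 0.38 ± 0.09 in P7 WT against P1 WT (limma adjusted p = 0.00675) and rose by 0.42 ± 0.08 in P21 WT against P7 WT (adjusted p = 1.43e-04), 0.89 above the median gene. Between P21 WT and P1 WT it had 0.03 ± 0.09 (adjusted p = 0.773), which is 0.51 above the median gene and passed after median-ratio scaling (0.59). Pdk4 (ENSMUSG00000019577; chr6:5483351-5496309) had 55.3, 43.5 and 90.5 TPM in P1 WT, 140.0, 198, 231, 240.0 and 197 TPM in P7 WT and 171, 57.04, 261 and 87.2 TPM in P21 WT. Every P7 library was above every P1 library, and the P21 libraries reached into the ranges of both. The ratio of the P7 WT to the P1 WT mean was 3.19, yet the log2 change of 1.40 ± 0.64 did not pass (adjusted p = 0.116). It passed without the title-style term (1.70, adjusted p = 0.0278) and without P21 cKO replicate 55 (1.40), a library of neither group that enters the shared spread.

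**Figure D1:**
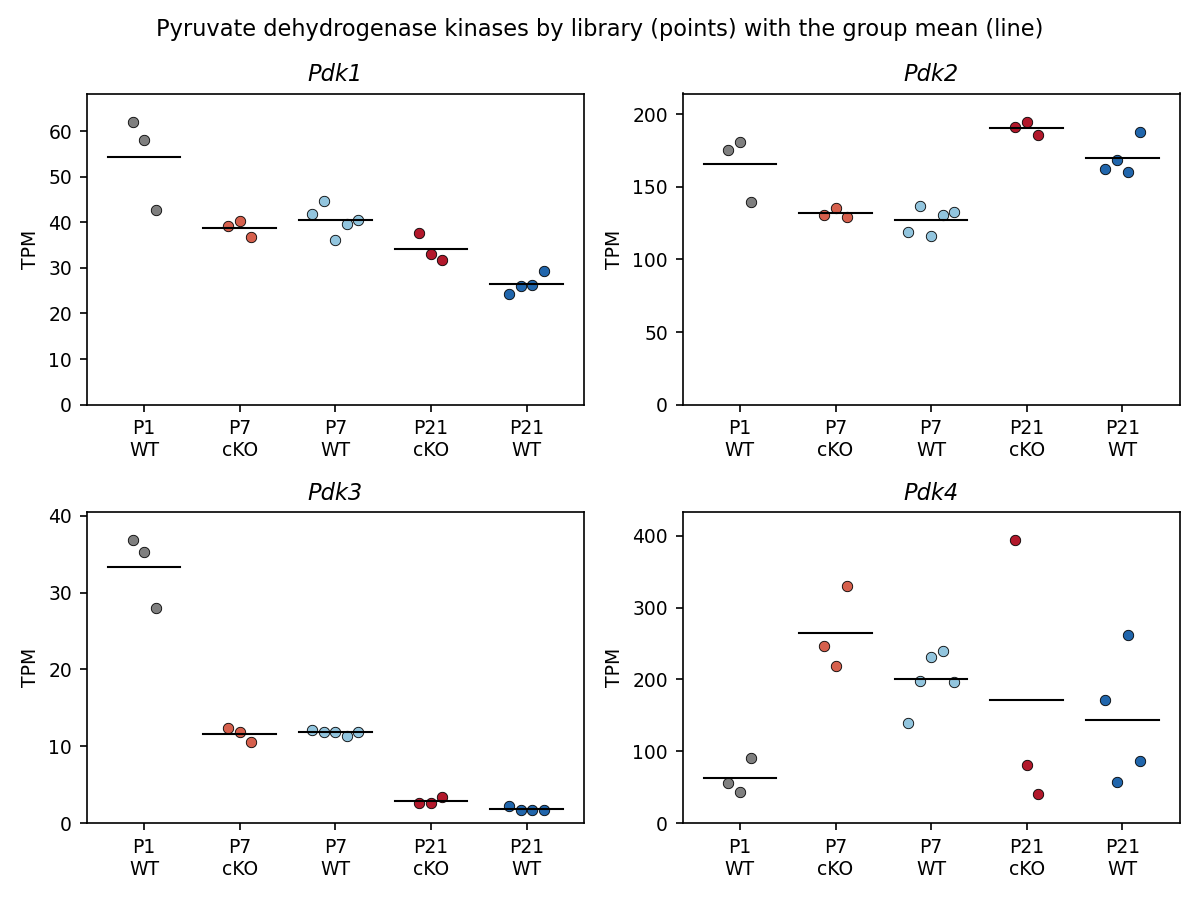
TPM of Pdk1, Pdk2, Pdk3 and Pdk4 (vertical axes, from 0) in each library (points) of the 5 groups, with the group mean as a line. Pdk3 stands at 28.0 to 36.8 TPM in P1 WT and below 4 TPM in every P21 library, while Pdk4 spreads from 40.6 to 394 TPM in P21 cKO.

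Because levels in TPM can be added, each kinase was also taken as a share of the 4. Pdk4 made up 20.2 ± 8.70% of kinase transcripts in P1 WT, 52.4 ± 5.48% in P7 WT and 39.2 ± 16.5% in P21 WT (SD over libraries). Pdk2 held 52.2 ± 5.31% in P1 WT, 33.6 ± 3.42% in P7 WT and 52.2 ± 14.3% in P21 WT. So Pdk2 was the leading kinase transcript in all 3 P1 WT libraries and Pdk4 in all 5 P7 WT libraries. At P21 the lead was split: Pdk4 led in WT libraries 2 and 57, and Pdk2 in 3 and 60. Pdk3 held 10.5 ± 1.06% in P1 WT, 3.14 ± 0.441% in P7 WT and 0.565 ± 0.129% in P21 WT. The 4 kinases together came to 316 ± 14.3 TPM in P1 WT, 381 ± 40.5 TPM in P7 WT and 342 ± 83.7 TPM in P21 WT.

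**Figure D2:**
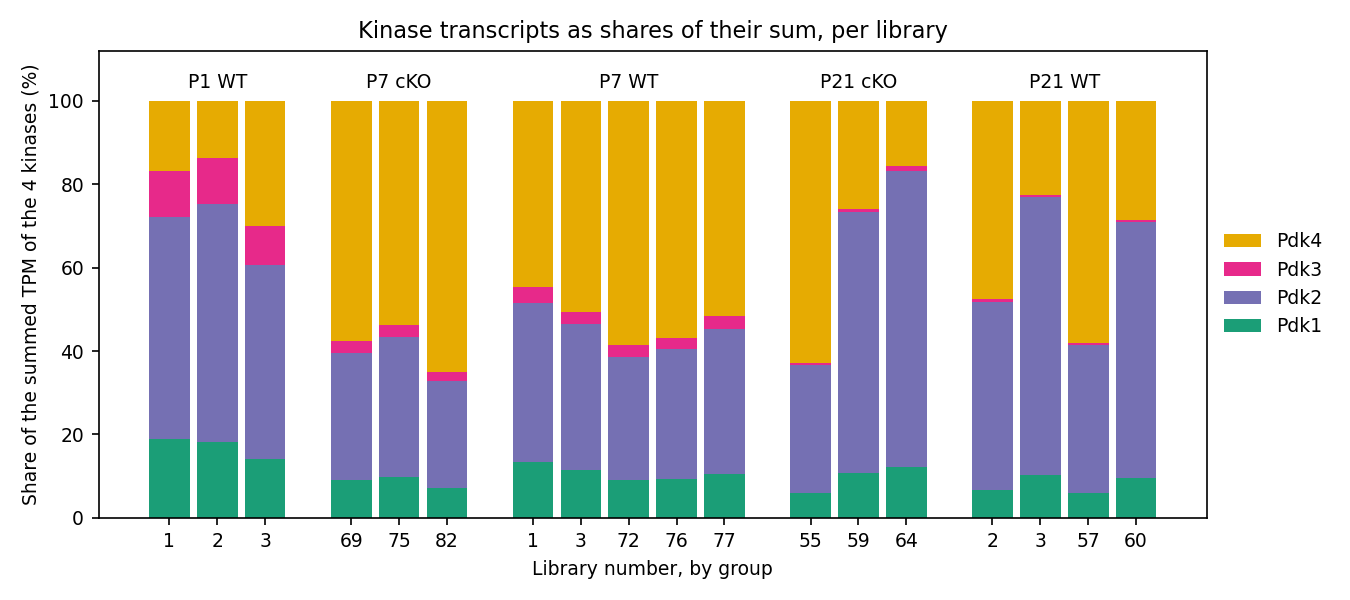
Share of each kinase in the summed TPM of the 4 (vertical axis, percent) for each library, grouped by age and genotype. Pdk4 takes 13.7% to 30.1% in P1 WT and 44.7% to 65.1% in every P7 library, and between 15.5% and 62.96% at P21.

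Pdp1 stayed above Pdp2 in every WT library, and the share of Pdp2 in their sum was higher at P21 than before. Pdp2 (ENSMUSG00000048371; chr8:104591451-104599026), the isoform known from liver and fat tissue, had 2.09, 2.94 and 1.85 TPM in P1 WT, 1.29, 1.39, 1.96, 1.40 and 1.41 TPM in P7 WT and 5.11, 4.17, 3.92 and 6.21 TPM in P21 WT. All P21 libraries lay above all earlier ones. It rose by 1.23 ± 0.16 in P21 WT against P7 WT (limma adjusted p = 4.93e-06), 1.70 above the median gene. In P7 WT against P1 WT it had -0.46 (adjusted p = 0.0924), which passed without P21 cKO replicate 55 (-0.46). Pdp1 (ENSMUSG00000049225; chr4:11958184-11966452), the calcium-stimulated isoform abundant in muscle, had 24.0, 20.7 and 18.5 TPM in P1 WT, 20.5, 20.1, 16.5, 21.2 and 17.8 TPM in P7 WT and 12.1, 12.6, 10.1 and 18.3 TPM in P21 WT. WT library 60 at P21 stood within the P7 range and the other 3 below it. Pdp1 fell by 0.53 ± 0.15 in P21 WT against P7 WT (adjusted p = 0.00514) and by 0.64 ± 0.19 in P21 WT against P1 WT (adjusted p = 0.00619). These are -0.05 and -0.16 relative to the median gene, and after median-ratio scaling they were 0.01 and -0.11 and did not pass; within plain-number libraries the P21 WT against P7 WT change was -0.40 (adjusted p = 0.102). As a share of the sum of both, Pdp2 made up 9.85 ± 2.30% in P1 WT, 7.31 ± 1.93% in P7 WT and 26.9 ± 2.26% in P21 WT. Summed kinases over summed phosphatases gave 13.6 ± 1.09 in P1 WT, 18.5 ± 2.63 in P7 WT and 20.1 ± 8.66 in P21 WT. Pdpr rose in P7 WT against P1 WT (0.47 ± 0.12, adjusted p = 0.00778).

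**Figure D3:**
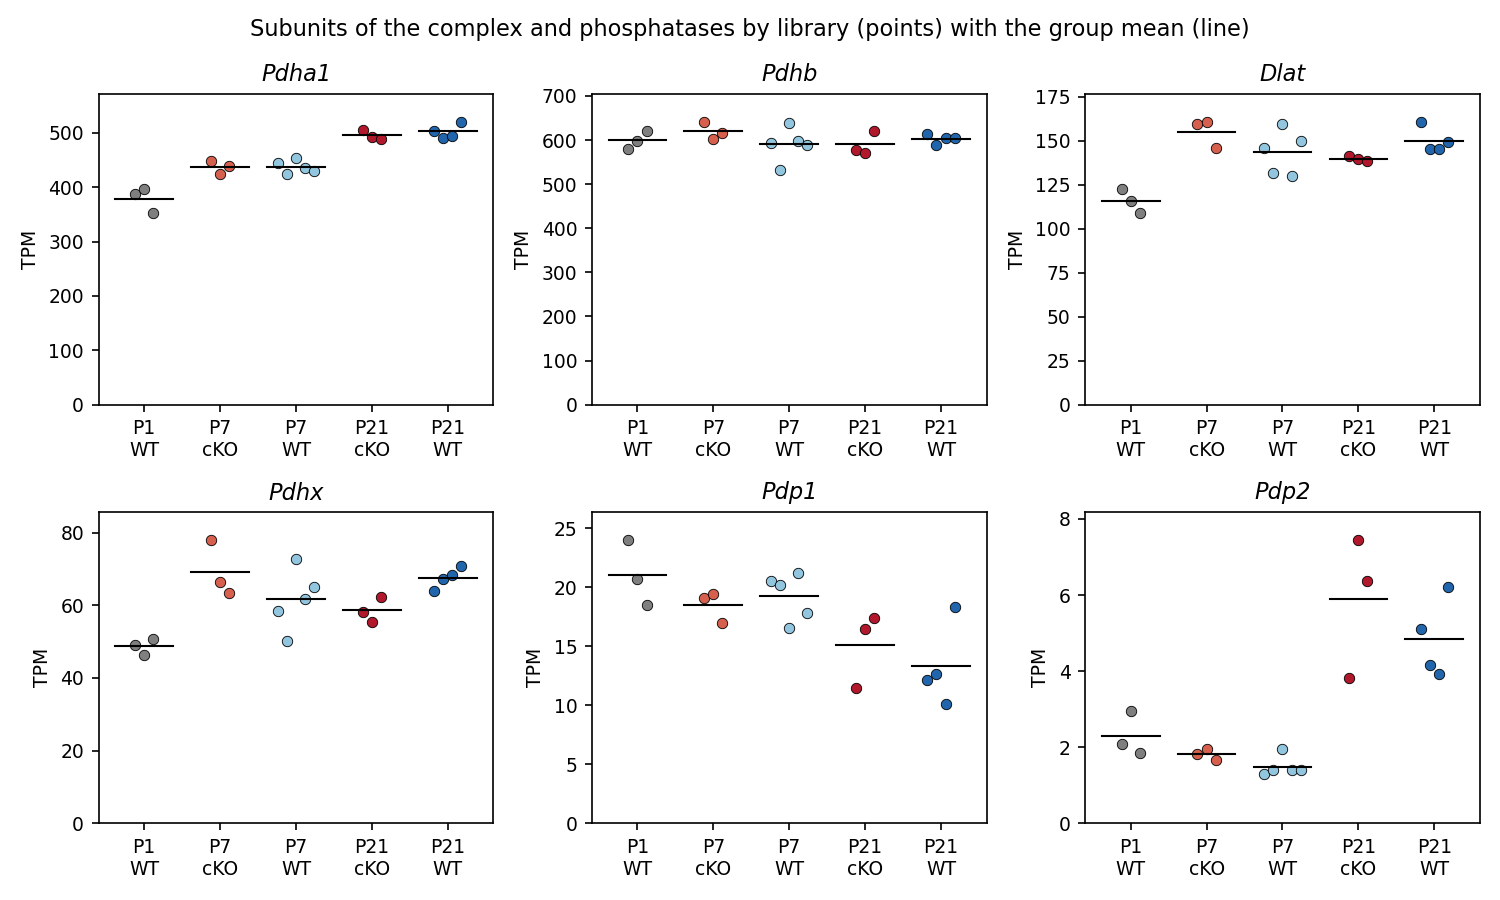
TPM of Pdha1, Pdhb, Dlat, Pdhx, Pdp1 and Pdp2 (vertical axes, from 0) in each library (points) of the 5 groups, with the group mean as a line. Pdhb stays between 531 and 641 TPM in all 18 libraries, and Pdp2 stands at 3.83 to 7.44 TPM at P21 and at 1.29 to 2.94 TPM before.

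In counts, 5 of the 10 genes passed in P7 WT against P1 WT (Pdha1 and Dlat higher, Pdk1, Pdk2 and Pdk3 lower), where 28.5% of all genes passed, 13.8% higher and 14.7% lower. In P21 WT against P7 WT 6 passed (Pdk2, Pdp2 and Pdha1 higher, Pdk1, Pdk3 and Pdp1 lower) against 72.5% of all genes (8.1% higher and 64.4% lower), and after median-ratio scaling 6 were higher and 1 lower, where 27.5% of all genes were higher and 27.2% lower. In P21 WT against P1 WT 7 passed (Pdp2, Pdha1, Pdhx and Dlat higher, Pdk1, Pdk3 and Pdp1 lower) against 68.1% of all genes (11% higher and 57.1% lower), and after that scaling 6 were higher and 2 lower, where 28.1% of all genes were higher and 29.3% lower. Both steps share the P7 WT libraries. Within libraries of 1 title style the counts were 4, 5 and 7, with Pdk1 lost at the first step and Pdp1 at the second. Within cKO hearts, 5 passed in P21 against P7, where 48.4% of all genes did, 9.36% higher and 39% lower. Pdk2 (0.53 ± 0.09), Pdp2 (1.25 ± 0.19) and Pdha1 (0.18 ± 0.05) rose and Pdk3 (-1.71 ± 0.11) fell there too. The fifth, Pdhx (-0.23, limma adjusted p = 0.0445), did not pass without any of P1 WT replicate 1, P7 WT replicates 1, 76 and 77, P7 cKO replicates 69 and 75, P21 WT replicate 2 and P21 cKO replicates 55 and 59 (-0.26 to -0.15), and was 0.05 after median-ratio scaling. Pdk1 had -0.18 ± 0.12 in cKO hearts (adjusted p = 0.233), and Pdk4 had -1.25 ± 0.63 (adjusted p = 0.111), which passed without P21 cKO replicate 55 (-2.17), with a sex term (-1.25, adjusted p = 0.0482) and with library 63 counted as P21 cKO (-1.46, adjusted p = 0.0455).

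At P7, cKO and WT hearts were compared at the age when Pdk4 led the kinases, and 0 of the 10 genes passed with limma, where 0.0203% of all genes did (3 of 14812, and 494 at an unadjusted p under 0.05). None of the 10 reached an unadjusted p of 0.05, and the cKO and WT libraries of each gene overlapped. The kinase Pdk4 had 246, 219 and 330.3 TPM in P7 cKO hearts and 140.0, 198, 231, 240.0 and 197 TPM in P7 WT, a log2 change of 0.20 ± 0.60. Its error is wide enough to hold a change of either sign. Pdk4 made up 58.8 ± 5.78% of kinase transcripts in P7 cKO and 52.4 ± 5.48% in P7 WT, with overlap. For Pdk3 the values were 12.4, 11.9 and 10.6 TPM in P7 cKO hearts and 12.1, 11.9, 11.8, 11.3 and 11.9 TPM in P7 WT (0.01 ± 0.11). The subunits had narrow errors, with -0.01 ± 0.05 for Pdha1, 0.05 ± 0.06 for Pdhb, 0.09 ± 0.09 for Pdhx and 0.11 ± 0.07 for Dlat. Among the phosphatases Pdp2 had 1.83, 1.96 and 1.66 TPM in P7 cKO hearts and 1.29, 1.39, 1.96, 1.40 and 1.41 TPM in P7 WT (0.14 ± 0.18), where WT library 72 stood at the top of the cKO range and the other 4 below it. Pdp1 averaged 18.5 ± 1.31 TPM in P7 cKO hearts and 19.2 ± 1.999 TPM in P7 WT (-0.05 ± 0.17).

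At P21, 3 of the 10 genes passed between cKO and WT hearts, where 21.3% of all genes did (19.5% higher and 1.77% lower): Pdk3 and Pdk1 were higher and Pdhx lower in cKO. The fibroblast, endothelial and mural markers given above were higher and the mitochondrial share was lower in the same libraries, and their part was not tested. Pdk3 had 2.65, 2.62 and 3.34 TPM in P21 cKO and 2.29, 1.70, 1.72 and 1.75 TPM in P21 WT. The groups did not overlap, and both lay well below the P7 level. Pdk3 rose by 0.47 ± 0.11 (limma adjusted p = 0.0105), 0.26 above the median gene. The call held without each library in turn, and after median-ratio scaling the change was 0.30 (adjusted p = 0.0787). Within plain-number libraries it was 0.50 (adjusted p = 0.0251). Pdk1 had 37.7, 33.1 and 31.6 TPM in P21 cKO and 24.3, 26.0, 26.3 and 29.4 TPM in P21 WT. The groups did not overlap, and the cKO libraries lay between P21 WT and P7 WT or within P7 WT. Its change of 0.36 ± 0.12 (adjusted p = 0.0473) was 0.15 above the median gene and 0.11 after median-ratio scaling (adjusted p = 0.541). It passed only with the library set complete or without 1 of P1 WT replicates 1 to 3 or P21 WT replicate 60; without any other library it lay between 0.29 and 0.42 and did not pass. Within plain-number libraries it was 0.28 (adjusted p = 0.164).

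Pdhx had 58.2, 55.5 and 62.4 TPM in P21 cKO and 63.9, 67.2, 68.4 and 70.9 TPM in P21 WT. Every cKO library lay below every WT library. Pdhx fell by 0.30 ± 0.09 (limma adjusted p = 0.0333), -0.52 relative to the median gene, and this change did not pass without P21 WT replicate 2, 3 or 57 or P21 cKO replicate 55 or 59 (-0.35 to -0.26), nor within plain-number libraries (-0.24, adjusted p = 0.12), nor without the title-style term (-0.20, adjusted p = 0.157). Dlat, which forms the core that Pdhx joins, had 141, 139 and 138 TPM in P21 cKO and 161, 145, 145 and 149 TPM in P21 WT. These groups did not overlap either, with a change of -0.11 ± 0.08 (adjusted p = 0.32), -0.33 relative to the median gene. Pdha1 (-0.03 ± 0.05), Pdhb (-0.06 ± 0.06) and Dld (-0.04 ± 0.08) did not pass. The direction of the count rests on the scaling: after median-ratio scaling 0 of the 10 genes were higher and 4 lower in P21 cKO, namely Pdhx, Dlat (-0.37), Pdhb (-0.33) and Pdha1 (-0.29), where 4.04% of all genes were higher and 5.41% lower.

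Pdk2 had 191, 195 and 186 TPM in P21 cKO and 163, 169, 160.0 and 188 TPM in P21 WT. WT library 60 reached into the cKO range, and the change of 0.16 ± 0.09 did not pass (limma adjusted p = 0.228). It was -0.06 relative to the median gene and turned to -0.10 after median-ratio scaling. The 3 kinases other than Pdk4 summed to 232, 230.5 and 221 TPM in P21 cKO and 189, 196, 188 and 219 TPM in P21 WT. These sums did not overlap, and Pdk2 made up most of each. They are in TPM and were not set against the median gene, which moved by 0.22 in the same comparison. The Pdk4 share of kinase transcripts was 34.8 ± 24.9% in P21 cKO and 39.2 ± 16.5% in P21 WT, and Pdk3 held 0.848 ± 0.427% in P21 cKO and 0.565 ± 0.129% in P21 WT. The phosphatases overlapped: Pdp1 had 15.1 ± 3.19 TPM in P21 cKO and 13.3 ± 3.52 TPM in P21 WT (0.19 ± 0.19, adjusted p = 0.475), which passed without P21 WT replicate 60 (0.46). Pdp2 had 5.88 ± 1.86 TPM in P21 cKO and 4.85 ± 1.04 TPM in P21 WT (0.15 ± 0.20, adjusted p = 0.586).

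**Figure D4:**
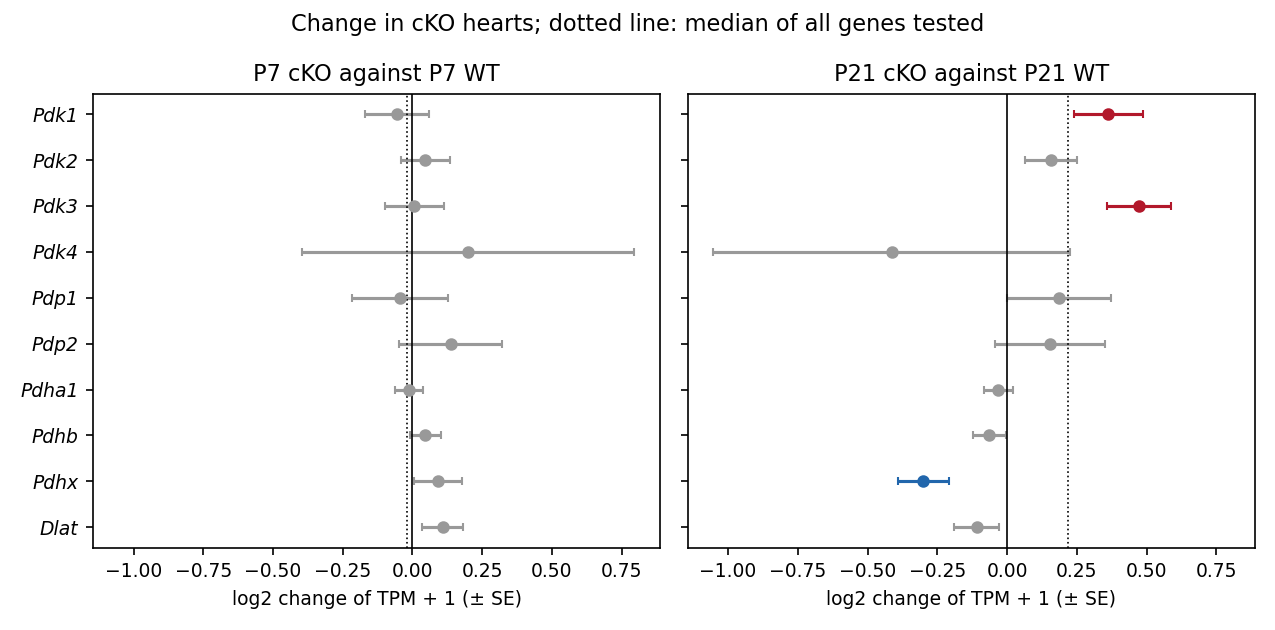
Log2 change of TPM + 1 (horizontal axes, with SE) of the 10 genes in cKO against WT hearts at P7 (left) and P21 (right); red and blue mark genes that passed as higher and lower, grey those that did not, and the dotted line is the median of all genes tested. At P21 Pdk1 and Pdk3 lie right of the median line at 0.22 and Pdhx lies left of 0, while Pdk4 has the widest error.

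The difference between the P21 and P7 changes was tested itself, as an interaction of the same model. With limma 0 of the 10 genes passed, where 7.56% of all genes did (7.04% higher and 0.52% lower), and 4 had an unadjusted p under 0.05. Pdhx had -0.39 ± 0.12 (adjusted p = 0.0531), Pdk3 0.47 ± 0.14 (adjusted p = 0.0575), Pdk1 0.42 ± 0.16 (adjusted p = 0.098) and Dlat -0.22 ± 0.10 (adjusted p = 0.164). The first 2 lie close to the threshold. Pdhx, Pdk3 and Pdk1 all passed without P1 WT replicate 3 and without P21 WT replicate 60, and Pdhx passed without P7 WT replicate 72 (0.42 to 0.49 for Pdk1, 0.46 to 0.47 for Pdk3 and -0.43 to -0.39 for Pdhx).

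Pdk4 was the most variable of the 10 genes at P21, and its level went with the sex transcripts that a library held, which was noticed after the values were seen. It had 394, 80.3 and 40.6 TPM in P21 cKO (coefficient of variation 113%) and 171, 57.04, 261 and 87.2 TPM in P21 WT (63.7%). Of genes averaging 5 TPM or more, 99.6% had a lower coefficient of variation in P21 cKO and 98.5% in P21 WT. Replicate 55 of cKO and replicates 2 and 57 of WT were the P21 libraries with Y-linked transcripts (Ddx3y, Kdm5d, Eif2s3y and Uty, 61.9 to 67.1 TPM in sum), and the other 2 cKO and 2 WT libraries held Xist (28.8 to 43.2 TPM). Pdk4 was at 171 to 394 TPM in the 3 libraries with Y-linked transcripts and at 40.6 to 87.2 TPM in the 4 with Xist, with means of 275 ± 111.9 TPM and 66.3 ± 21.4 TPM (SD). No value of the Xist libraries reached the others, in cKO or in WT. Arntl, 1 of 15 clock genes followed, only just divided the same P21 libraries. It had 1.07 to 3.1 TPM in those with Y-linked transcripts and 3.17 to 11.33 TPM in those with Xist. The other clock genes are not given by this split. Sex and the level of Arntl therefore cannot be told apart here, and their part in the Pdk4 level was not tested. The split was noticed in these same values, so its size is given as a description, with no test. In a model with a sex term at each age, Pdk4 was 2.05 ± 0.30 higher (log2, SE) in P21 libraries with Y-linked transcripts. With each of the 18 libraries left out in turn the difference lay between 1.57 (without P21 cKO replicate 55) and 2.23. As the split was picked from these values, neither this error nor this range is support for it.

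At P7 both kinds of library overlapped. The 4 libraries with Y-linked transcripts had 140.0 to 330.3 TPM of Pdk4 and the 4 with Xist had 198 to 246 TPM, with a log2 difference of -0.02 ± 0.28. In that model the P21 sex difference minus the P7 sex difference was 2.07 ± 0.41. As the split was picked from these values, this too is a description, and no difference between the ages is drawn from it. With the sex terms in the model, Pdk4 had -0.07 in P21 cKO against WT (limma adjusted p = 0.892), where the model without them gave -0.41 ± 0.64 (adjusted p = 0.659) and the ratio of the means was 1.19. Pdp1, which acts against the kinases, had 10.1 to 12.1 TPM in the P21 libraries with Y-linked transcripts and 12.6 to 18.3 TPM in those with Xist. These ranges lay close together, and the log2 difference was -0.46 ± 0.12, again a description of the picked split with no test. The ratio of the kinase sum to the phosphatase sum at P21 was 31.3 ± 10.04 in the 3 libraries with Y-linked transcripts and 12.9 ± 1.69 in the 4 with Xist. This ratio holds the same Pdk4 and Pdp1 values, so it is no separate result.

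**Figure D5:**
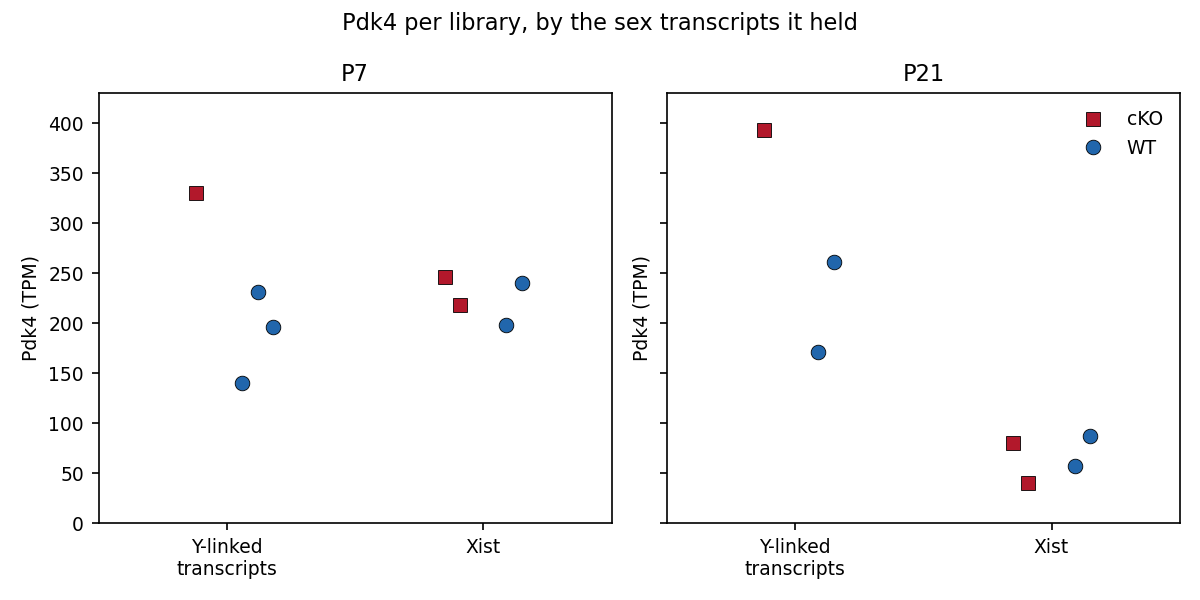
Pdk4 in TPM (vertical axis) per library at P7 and P21, split by whether the library held Y-linked transcripts or Xist; red squares are cKO and blue circles WT. At P21 the 3 libraries with Y-linked transcripts stand at 171 to 394 TPM, above the 4 with Xist, and at P7 both kinds overlap.

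Over the 18 libraries, which share age groups, genotypes and the 5-group layout, Pdk1 and Pdk3 ran together (Pearson r = 0.90 of log2 TPM + 1), as did Pdhx and Dlat (0.84) and Pdk2 and Pdp2 (0.84), while Pdk3 ran against Pdha1 (-0.94). Among 8897 genes averaging 5 TPM or more, those like Pdk1 included Supt5 and Dnajb6 (r of 0.98 each). Most like Pdk2 were Aldh6a1, Corin and Aldh2 (0.93 to 0.95). For Pdha1 they were Limch1, Pde4dip and Chpt1 (0.95 to 0.98), and for Pdp1 Rfwd3, Meis1 and Snx2 (0.94 to 0.95). For Pdk4 the values were lower, with Crem at 0.85 and Klf4 at 0.83.

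The genes around the complex moved in part with it. Of 15 genes that carry pyruvate or lactate or use pyruvate otherwise, 7 rose and 3 fell in P7 WT against P1 WT (13.8% of all genes rose and 14.7% fell). Pcx, which turns pyruvate into oxaloacetate, had 1.96 ± 0.294 TPM in P7 WT and 7.86 ± 1.05 TPM in P1 WT (-1.59, limma adjusted p = 2.36e-06), and Me1, cytosolic malic enzyme, rose by 1.02. In P21 WT against P7 WT, where 8.1% of all genes rose and 64.4% fell, 7 of the 15 rose and 5 fell. Mpc1, a subunit of the carrier that brings pyruvate into mitochondria, had 530.5 ± 17.3 TPM in P21 WT and 332 ± 27.9 TPM in P7 WT (0.69, 1.16 above the median gene), and Pcx rose by 0.97. Ldha, the muscle-type lactate dehydrogenase subunit, fell by 0.63 there, -0.16 relative to the median gene, and did not pass after median-ratio scaling (-0.06). In P21 cKO against P21 WT, where 19.5% of all genes rose and 1.77% fell, 5 of the 15 rose and 3 fell. Gpt2, mitochondrial alanine aminotransferase, had 8.98 ± 0.501 TPM in P21 cKO and 16.3 ± 0.350 TPM in P21 WT (-0.82, adjusted p = 0.00163). Slc16a7, a monocarboxylate transporter, rose by 0.91. Bsg, a chaperone of some monocarboxylate transporters, rose by 0.40, 0.19 above the median gene and 0.14 after median-ratio scaling, where it did not pass.

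The lipoic acid cofactor of the complex and its sister complexes were followed in the same way. Of 17 tested genes that make lipoic acid, which Dlat carries, or attach it, 0 rose and 6 fell in P7 WT against P1 WT, 2 rose and 5 fell in P21 WT against P7 WT, and 1 rose and 1 fell in P21 cKO against P21 WT. Of all genes, 13.8% rose and 14.7% fell in the first of these comparisons, 8.1% and 64.4% in the second, and 19.5% and 1.77% in the last. Mcat, of mitochondrial fatty acid synthesis, fell by 0.39 in the first of these (limma adjusted p = 0.00143), and Lipt2, the octanoyltransferase of that pathway, fell by 0.61 in the last (adjusted p = 0.0127). Of 9 genes of the other 2-oxoacid dehydrogenases, 2 rose and 3 fell in P7 WT against P1 WT, with 0.72 for Ogdh and 0.32 for Dlst of the 2-oxoglutarate complex and -0.63 for Bckdha of the branched-chain complex. In P21 WT against P7 WT 6 rose and 2 fell, with 1.13 for Bckdha and 1.20 for Ppm1k, its phosphatase. Ogdhl, a relative of Ogdh, rose by 3.13 there, and was the 1 gene of the 9 to pass in P21 cKO against P21 WT (-1.84, adjusted p = 2.02e-05). Of 4 deacylases and acyltransferases known to act on the complex, 2 rose in P7 WT against P1 WT, Acat1 by 0.31, and 0 passed in P21 cKO against P21 WT.

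Targets and regulators of the factors known to act on Pdk4 and Pdk1 were set beside them. PPAR targets, to which Pdk4 itself is known to belong (it is not in the list), largely moved one way in the first week: 21 of 24 rose and 0 fell in P7 WT against P1 WT (13.8% and 14.7% of all genes), with a median of 0.73, where the median gene had -0.0011. Cpt2 rose by 0.92, Hadha by 0.73, Slc25a20 by 0.72 and Cd36, a fatty acid transporter, by 0.72 (limma adjusted p of 1.79e-05 to 7.91e-05). In P21 WT against P7 WT 1 rose and 16 fell (8.1% and 64.4% of all genes), with a median -0.20 relative to the median gene. Acot1, an acyl-CoA thioesterase, fell by 2.96 and Cpt1b, which gates fatty acid entry into mitochondria, by 0.89. In P21 cKO against P21 WT 2 rose and 3 fell (19.5% and 1.77% of all genes). Slc25a20 had -0.53, Cpt2 -0.47 and Acadm -0.32, and Lpl had 0.52, which did not pass after median-ratio scaling (0.26). With library 63 counted as P21 cKO, Slc25a20 (-0.39), Cpt2 (-0.34), Acadm (-0.25) and Lpl (0.39) did not pass.

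Of 20 HIF targets, 5 rose and 7 fell in P7 WT against P1 WT (13.8% and 14.7% of all genes), and 5 rose and 1 fell in P21 cKO against P21 WT, with a median 0.01 above the median gene. As 19.5% of all genes rose there and 1.77% fell, the share that rose was near that of all genes. Slc2a1, the basal glucose transporter, had 6.10 ± 1.89 TPM in P21 cKO and 2.38 ± 0.363 TPM in P21 WT (0.93, limma adjusted p = 0.00482), and fell by 1.78 in P7 WT against P1 WT. Of 19 factors known to act on the Pdk genes, 4 rose and 0 fell in P21 cKO against P21 WT, again near the 19.5% of all genes that rose. Hif1a had 31.0 ± 5.97 TPM in P21 cKO and 18.7 ± 3.76 TPM in P21 WT (0.79, adjusted p = 0.0139), and Esrrb, an oestrogen-related receptor, had 0.73 (adjusted p = 0.0139). After median-ratio scaling Hif1a passed (0.54) and Esrrb did not (0.52). Neither passed without P21 WT replicate 57 or P21 cKO replicate 64 (0.63 to 0.66 for Hif1a and 0.59 to 0.65 for Esrrb). Klf15, a glucocorticoid-induced factor, had 25.8 ± 4.96 TPM in P1 WT, 5.63 ± 0.794 TPM in P7 WT and 16.1 ± 3.57 TPM in P21 WT, passing as lower in P7 WT and higher again in P21 WT (-2.23 and 1.39). Hif1a fell by 1.41 in P21 WT against P7 WT, and Thrb, a thyroid hormone receptor, rose by 1.08.

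Of 18 FOXO targets, 6 rose and 0 fell in P21 cKO against P21 WT, where 19.5% and 1.77% of all genes did. Their median lay 0.24 above that of all genes. Insr, the insulin receptor, rose by 0.77 (limma adjusted p = 0.0013), Gabarapl1, of the autophagosome, by 0.71 (adjusted p = 0.00225) and Trim63, a muscle ubiquitin ligase, by 0.44, 0.22 above the median gene and short of passing after median-ratio scaling (0.18). Pdk4, known as a FOXO target too, did not pass there, as given above. In P7 WT against P1 WT 2 of the 18 rose and 9 fell (13.8% and 14.7% of all genes). Of 15 clock genes, 1 passed in P21 cKO against P21 WT, and in P21 WT against P7 WT 4 rose and 4 fell (8.1% and 64.4% of all genes), Cry1 by 1.15 and -0.68 relative to the median gene. In P7 cKO against P7 WT 0 genes of any list described here passed with limma.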

How the data were processed

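Heart RNA from 19 libraries was sequenced. Per the labels' protocols, RNA iso Plus served to extract the RNA and a SMARTer mRNA-Seq kit to prepare the libraries. TPM values per gene were made and deposited by the authors. Per the submitters' processing notes TopHat2 2.0.14, Cufflinks 2.2.1 and the build mm10 were used, and the annotation and the tool behind the TPM values are not given in the sources used here. The file holds no counts, so depth is unknown and no counting error can be given; 12422 to 13797 genes reached 1 TPM per library. Another 2 columns, of no listed sample, were left aside.

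The 14812 of 56066 genes that reached 1 TPM in 3 or more libraries were fitted on log2(TPM + 1) with limma 3.58.1 (lmFit, then eBayes with a trend, R 4.3.3), with 5 groups and a term for the style of the title, and p-values were adjusted by Benjamini-Hochberg over all of them (two-sided). The 18 libraries shared 1 estimate of the spread. Library 63 at P21 was left out, since its genotype label and its title disagree. The fit was tested on simulated data. Levels, shares, promoters and figures were computed with Python 3.11.15, pandas 2.3.3 and matplotlib 3.10.9. Positions are mm10, and promoters are RefSeq's of GRCm38.p6. Of 218 listed symbols 2 were not matched.

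Named were the 10 genes, Dld, Pdpr and Pdpk1, and per list and comparison up to 4 genes with the smallest limma p among those that passed. As genes of like pattern the 3 with the highest Pearson r were taken for 5 of the 10. A few of the genes so chosen are not reported here. The members and lists were chosen with earlier results of these data known. The sex terms at each age were chosen after the values were seen. Alternatives were median-ratio scaling, no style term, other filters (5 TPM, and none), the pseudocount set to 0.1, libraries of 1 title style, a sex term, a replicate block, library 63 in either group and each library left out.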

Additional observations from a re-analysis of the deposited data

Results flagged for a closer look

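In P21 WT hearts, Pdk3 stood at 2.29 TPM in replicate 2, above 1.70, 1.72 and 1.75 TPM in the other 3 libraries. The gap to the nearest library took up 0.915 of the range of the group, above Dixon's critical value of 0.829 for 4 samples. All 3 P21 cKO libraries were above it still, at 2.62 to 3.34 TPM.

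In P7 WT hearts, Pdp2 stood at 1.96 TPM in replicate 72, above 1.29 to 1.41 TPM in the other 4 libraries, with a gap of 0.821 of the range, above the critical value of 0.71 for 5 samples. The P7 cKO libraries had 1.66 to 1.96 TPM. Chance flags about 1 in 20 groups.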

How the results depend on the processing

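Of 70 log2 changes of the 10 genes (7 comparisons), 44 kept their direction and side of the threshold after median-ratio scaling, and 62 to 68 of 70 under each other planned setting. In P21 cKO against WT the count of genes that passed was 3, and it was 2 (Pdk1, Pdk3) without the style term, 2 (Pdhx, Pdk3) with a sex term, 1 (Pdk3) without a filter, within 1 title style and with library 63 as cKO, and 1 to 4 without each library in turn. For the interaction the count was 0, against 2 (Dlat, Pdhx) after median-ratio scaling, 1 (Pdk3) with a pseudocount of 0.1, 2 (Pdhx, Pdk3) with a filter of 5 TPM, 2 (the same genes) with a sex term, 1 (Pdk3) with the replicate block, and 0 to 3 without each library in turn. Median-ratio scaling turned the sign of these changes: in P21 cKO against P7 cKO Dlat (0.13), Pdhb (0.21), Pdhx (0.046) and Pdk1 (0.095), in P21 WT against P7 WT Dld (0.48), Nfu1 (0.12) and Pdp1 (0.012), in P7 cKO against WT Pdha1 (0.015), in P21 WT against P1 WT Pdhb (0.54), in P21 cKO against WT Pdk2 (-0.10), Pdp1 (-0.059) and Pdp2 (-0.053), in the interaction Pdk2 (-0.18), Pdp1 (-0.040) and Pdp2 (-0.20), in the P7 sex term Pdk4 (0.0095). Of these, Pdp1 (-0.53) and Nfu1 (-0.45) in P21 WT against P7 WT and Pdhx (-0.23) in P21 cKO against P7 cKO had passed before. Without the style term the sign turned for Pdhb (0.0080) in P21 WT against P1 WT, Pdk3 (-0.025) in P7 cKO against WT, Pdk4 (0.032) in the P7 sex term. Within 1 title style the sign turned for Pdhb (0.0037) in P21 WT against P1 WT, Pdhb (-0.0086) in P21 WT against P7 WT, Pdk3 (-0.0088) and Pdp1 (0.0036) in P7 cKO against WT. With a sex term the sign turned for Pdk3 (-0.011) in P7 cKO against WT. With library 63 as P21 WT the sign turned for Pdk3 (-0.013) in P7 cKO against WT, Pdp2 (-0.039) in the interaction. With a pseudocount of 0.1 the sign turned for Pdp2 (-0.054) in the interaction. With sex terms at each age the sign turned for Pdk3 (-0.0036) in P7 cKO against WT, Pdp2 (-0.044) in the interaction. With 1 library left out at a time, the sign turned within the range given for Dld (-0.11 to 0.026), Pdk4 (-1.33 to 0.29), Pdp2 (-0.012 to 0.39), Pdpr (-0.16 to 0.00037) in P21 cKO against WT, Pdha1 (-0.030 to 0.0095), Pdk2 (-0.0048 to 0.066), Pdk3 (-0.037 to 0.066), Pdp1 (-0.12 to 0.022) in P7 cKO against WT, Pdhb (-0.058 to 0.00018), Pdk2 (-0.083 to 0.10) in P21 WT against P1 WT, Pdk4 (-1.53 to 0.090), Pdp2 (-0.15 to 0.25) in the interaction, Pdk4 (-0.32 to 0.16) in the P7 sex term. Between letter-coded libraries of the same replicate number, the 5 correlations of deviations ran from -0.095 to 0.066. P7 WT and P21 WT have 2 such libraries each, so their deviations mirror each other. P1 WT replicate 1 had -0.082 with P7 WT replicate 1 and 0.082 with P7 WT replicate 3. These values therefore cannot decide whether a number marks a shared origin. With the replicate block in place of the style term 2 genes (Pdhx and Pdk3) passed in P21 cKO against WT, and Pdk1 had 0.34 (limma adjusted p = 0.0669). With library 63 as P21 cKO, 13 of 66 changes of other named genes no longer passed. In P21 cKO against WT, Insr (0.58), Lpl (0.39), Slc16a7 (0.66), Esrrb (0.58), Bsg (0.29) and Gabarapl1 (0.47) were among them. So were Cpt2 (-0.34), Slc25a20 (-0.39), Acadm (-0.25) and Lipt2 (-0.49). The cause was not tested for any of these. TPM keep no depth, so low values such as those of Pdk3 and Pdp2 at 1 to 8 TPM carry a counting error that cannot be given. With 3 cKO libraries at each age, 1 library can decide a call.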
